A study of Rattus norvegicus with 4 samples.

Results

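The chemokines *Ccl2*, *Ccl7*, *Cxcl1*, *Cxcl10*, *Cxcl12* and *Cx3cl1*, the cytokines *Il6* and *Il1b*, and *Ptgs2*, which encodes the inducible cyclooxygenase COX-2, were examined in rat lens capsules after extracapsular lens extraction (ECLE). These 9 genes were chosen by name as a group of inflammatory signals. All 9 had a probe set with a single gene symbol, and they were 9 of the 14217 genes measured. They were read by 11 probe sets, because *Cxcl12* had 3.

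In the study, the lens content of 7-week-old female albino SD rats was removed, and the lens capsules with the lens epithelial cells (LECs) left on them were collected. This is a model of posterior capsule opacification (PCO), the clouding of the capsule that can follow cataract surgery. RNA was measured on 4 arrays, 1 at day 0 (collected when surgery was complete, rats 7 weeks old), 2 at 1 W (7 days, rats 8 weeks old, biological replicates 1 and 2) and 1 at 2 W (14 days, rats 9 weeks old). Every array came from operated eyes, so the day 0 capsules carry the surgery as well. The study's methods describe right-eye capsules of several rats per time point and more array samples per group than the 1, 2 and 1 analysed here, and which capsules went onto which array is not stated there.

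Chemokines are small secreted proteins that bind receptors on white blood cells and guide them into tissue. CCL2 and CCL7 attract monocytes, CXCL1 attracts neutrophils, CXCL10 is induced by interferons and attracts activated T cells, CXCL12 is made by many resting stromal cells, and CX3CL1 is made as a membrane-bound molecule that can be shed. IL-1β and IL-6 are cytokines that drive local inflammation and the acute phase response. COX-2 makes the precursor of the prostaglandins, lipid mediators that are known in the eye after surgery and are the target of the anti-inflammatory eye drops given after cataract operations.

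Of the 9 genes, *Ptgs2*, *Ccl2* and *Ccl7* exceeded 2.0-fold of day 0 on all 3 arrays after ECLE. *Ptgs2* and *Ccl7* were dim at day 0. *Cxcl1* and *Il6*, both dim, were over 2.0-fold on 1 W replicate 2 and at 2 W. With each array divided by its mean, *Il1b*, *Cx3cl1* and *Cxcl10* stayed within 2.0-fold of day 0 on every array. This depended on the scaling for 2 of them at 2 W. *Il1b* was over 2.0-fold with median scaling (log2 1.13) and quantile normalization (log2 1.12). *Cxcl10* was under 0.5-fold without scaling (log2 -1.08). By its brightest probe set, *Cxcl12* was near its day 0 level at 1 W and at 0.472-fold of it at 2 W. Its other 2 probe sets were at 0.904-fold and 0.908-fold at 2 W. None of these differences passed the test across all probe sets, so they are given below as measured values.

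The intensities quoted are those deposited, and the ratios and folds were taken after each array had been divided by its mean intensity. The mean was 244 at day 0, 218 and 210 on 1 W replicates 1 and 2, and 165 at 2 W. All genes then had a median log2 ratio to day 0 of -0.02 (1 W) and -0.16 (2 W). Both arrays at 1 W were averaged on the log2 scale, and a gene with several probe sets is represented by the brightest. The only spread between samples of a group came from the 2 arrays at 1 W, and the single arrays at day 0 and 2 W were assumed to vary like them. LEC markers were present throughout, with a summed level of 12 markers of 205, 198, 193 and 193 array means at day 0, on 1 W replicates 1 and 2 and at 2 W. The members of this list differed, with a median log2 ratio of -0.16 (1 W) and -0.76 (2 W) and 5 of 12 under 0.5-fold at 2 W. The bright lens crystallins *Cryaa* and *Cryab* were at 1.62-fold and 1.52-fold at 2 W, whereas *Cdh1* (E-cadherin) was at 0.270-fold and the lens transcription factor *Foxe3* at 0.363-fold. The 3'/5' ratio of the beta-actin control probe sets, a sign of RNA integrity, stood at 2.32 on day 0, 1.89 and 1.90 on the 1 W arrays, and 1.61 at 2 W. For the GAPDH control probe sets it was 1.16, 1.12, 1.18 and 1.10 in the same order.

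The test covered 18625 probe sets, those whose mean log2 level reached the 40th percentile. Among the 9 genes, 6 passed this filter, and *Cxcl1*, *Cxcl10* and *Il6* did not. The level is a mean over the arrays, so a gene that is dim at day 0 can pass through its later values. The day 0 intensities of *Ccl7* (11.5) and *Ptgs2* (17.0) were below the 20.4 of *Cxcl10*, which did not pass. The folds of *Ccl7* and *Ptgs2* thus rest on low day 0 values, although a floor at the 20th percentile of intensity left them unchanged. By limma at a Benjamini-Hochberg adjusted p under 0.05, 0 of the 6 tested genes were called at 1 W, at 2 W or between 2 W and 1 W. Over all probe sets, limma called 9 (0.0483%) higher and 0 (0%) lower at 1 W, 9 (0.0483%) higher and 0 (0%) lower at 2 W, and 0 (0%) in either direction between 2 W and 1 W. With median scaling limma called 260 as higher beside 146 as lower (1 W), and 948 beside 683 (2 W). At an unadjusted p under 0.05, limma counted 3 of the 6 genes at 1 W (*Ptgs2*, *Ccl2*, *Ccl7*), where 17.9% of all probe sets were so counted, and 3 at 2 W (*Ptgs2*, *Ccl7*, *Cxcl12*), where 30.9% were. Between 2 W and 1 W it counted 2, *Cxcl12* and *Ptgs2*, against 21.9% of all probe sets. The lowest adjusted p of any of the 9 genes by limma was 0.0828 at 1 W, 0.0558 at 2 W and 0.139 between 2 W and 1 W.

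By the fold rule of the study's methods, 4 of the 9 genes were over 2.0-fold at 1 W, where 8.98% of all genes were. At 2 W 5 of the 9 were over 2.0-fold, where 12% of all genes were. On each of the 3 arrays after ECLE 3 of the 9 were over 2.0-fold, against 4.28% of all genes. Under 0.5-fold were 0 of the 9 at 1 W (8.36% of all genes), 1 at 2 W (14.7% of all genes) and 0 on each of the 3 arrays (2.59% of all genes). The median log2 ratio of the 9 genes was 1.00 at 1 W and 1.20 at 2 W, beside the -0.02 and -0.16 of all genes. Each median is the value of a gene below the filter, *Il6* at 1 W and *Cxcl1* at 2 W. With a floor at the 20th percentile of intensity, the log2 ratio of *Il6* at 1 W was 0 and that of *Cxcl1* at 2 W was 0.40. Of the 9 genes, 7 were above day 0 on each of the 3 arrays. In bulk RNA, more cells of a type and more RNA per cell cannot be told apart.

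**Figure D1:**
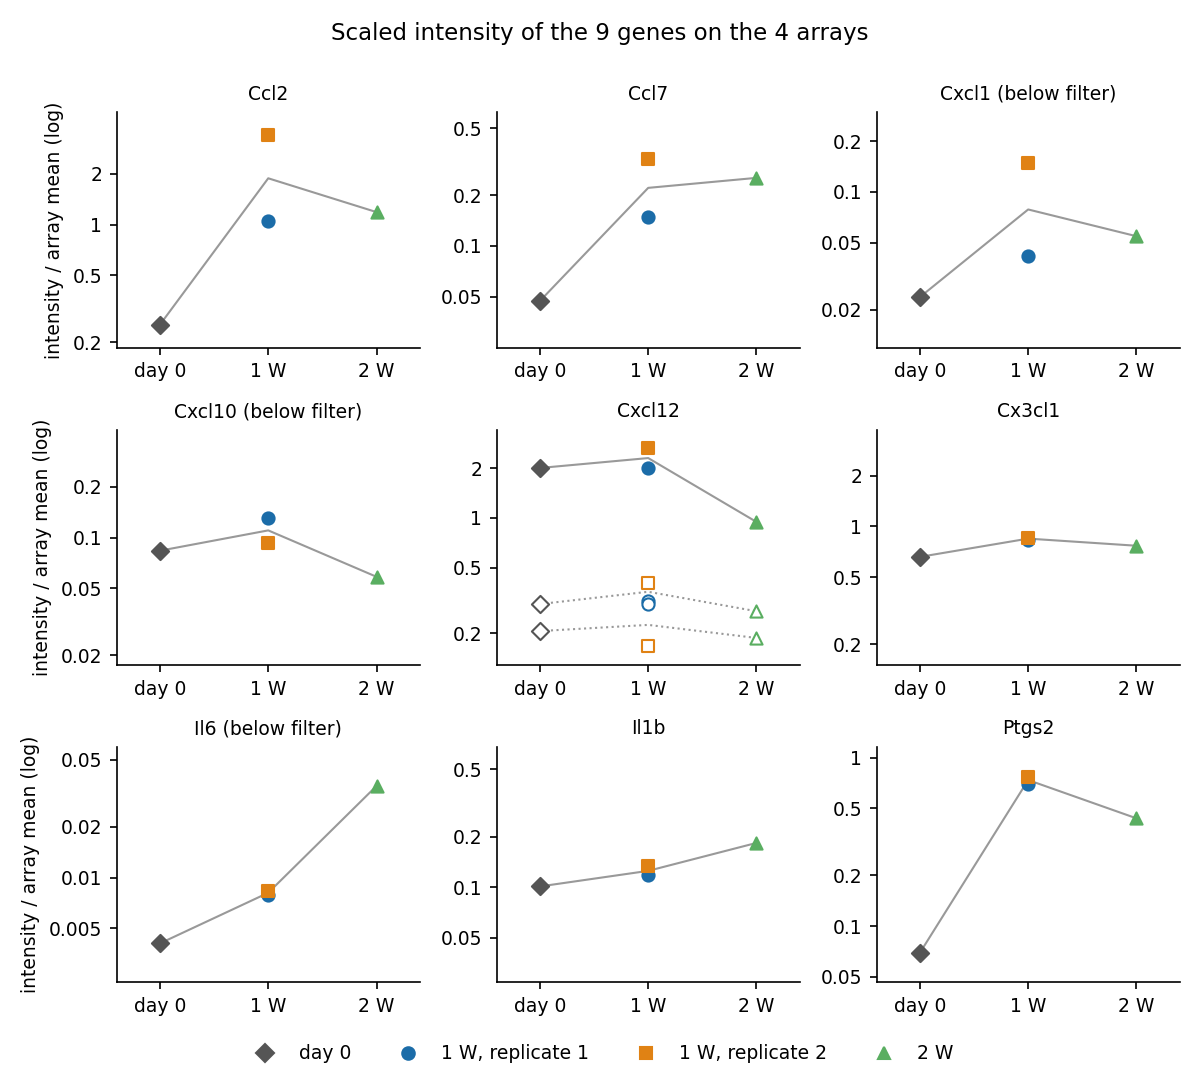
Intensity of each of the 9 genes divided by the mean intensity of its array, on a log axis, at day 0, 1 W (2 arrays) and 2 W, with a line through the 1 W mean. Open symbols and dotted lines are the other 2 probe sets of *Cxcl12*. *Ptgs2* lies above day 0 on all 3 arrays after ECLE with both 1 W arrays close together, whereas the 1 W arrays of *Ccl2* and *Cxcl1* lie 3.25-fold and 3.59-fold apart.

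COX-2 is the rate-limiting enzyme of induced prostaglandin synthesis. *Ptgs2* showed intensities of 17.0 at day 0, 153 and 162 on 1 W replicates 1 and 2, and 72.0 at 2 W. All 3 arrays after ECLE were far above day 0, and the 2 W array lay below both 1 W arrays. The ratio to day 0 was 10.6-fold at 1 W (log2 3.40, SE 0.25, limma adjusted p = 0.0828) and 6.28-fold at 2 W (log2 2.65, SE 0.29, limma adjusted p = 0.0558). Over the alternative settings the limma adjusted p of *Ptgs2* ran between 0.00499 and 0.295 at 1 W and between 0.00872 and 0.149 at 2 W. Its log2 difference of -0.75 between 2 W and 1 W did not pass the test (limma adjusted p = 0.206). The ratio of *Ptgs2* was higher than that of 99.3% of genes at 1 W and 97.4% at 2 W. The study named *Ptgs2* among its genes by fold change on these arrays, so these values are not independent evidence.

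The Ptgs2 locus lies on chromosome 13 (64714063 to 64722320, RefSeq GRCr8), and *Ptgs2os*, an opposite strand transcript, is annotated next to it. Its probe set, which was chosen after its values were seen and lies below the filter, showed intensities of 4.95 at day 0, 31.5 and 33.5 on the 1 W arrays and 37.4 at 2 W. This transcript was higher than day 0 on all 3 arrays as well, with log2 ratios of 2.84, 2.98 and 3.49. Among the genes at or above the filter, the levels over the 4 arrays most like those of *Ptgs2* were those of *Runx1*, a transcription factor, at a distance of 0.20 (Euclidean, log2 levels centred per gene), and *Itga11*, a collagen-binding integrin, at 0.21.

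Prostaglandin synthesis starts with the release of arachidonic acid, for which cytosolic phospholipase A2 is the main enzyme. *Pla2g4a*, which encodes it, showed intensities of 82.5 at day 0, 256 and 235 on the 1 W arrays and 188 at 2 W. Its ratio to day 0 was 3.40-fold at 1 W (SE 0.18 log2, limma adjusted p = 0.0998) and 3.38-fold at 2 W (SE 0.21 log2, limma adjusted p = 0.0574), so the arrays after ECLE were all higher without passing the test. Of the genes acting after COX-2, the prostaglandin E synthase *Ptges* showed intensities of 55.9 at day 0, 48.1 and 41.9 on the 1 W arrays and 32.1 at 2 W, which after scaling was 0.918-fold at 1 W and 0.851-fold at 2 W. The prostaglandin D synthase *Ptgds*, the brightest gene of the prostaglandin list, read 9955, 5142, 3778 and 4048. Its ratio was 0.506-fold at 1 W (limma adjusted p = 0.161) and 0.602-fold at 2 W (limma adjusted p = 0.131). *Hpgd*, the enzyme that inactivates prostaglandins, lies below the filter and read 6.39, 12.3, 20.6 and 14.8 on the 4 arrays, over 2.0-fold on each of the 3 after ECLE.

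Prostaglandin E2 acts on the EP receptors. *Ptger4* (EP4), below the filter, showed intensities of 2.70 at day 0, 32.7 and 31.4 on the 1 W arrays and 2.24 at 2 W, so it was high on both 1 W arrays and near day 0 at 2 W. *Ptger3* (EP3) read 160, 93.0, 60.1 and 42.0 in the same order, and its 2 W ratio was 0.388-fold (limma adjusted p = 0.117). These 2 receptors, *Ptges*, *Ptgds* and *Hpgd* were named for their place in the pathway after their values were seen. Of the 19 of 21 listed prostaglandin genes with a probe set, 4 were over 2.0-fold and 1 under 0.5-fold at 1 W, and 4 and 2 at 2 W. Their list median was -0.01 (1 W) and -0.23 (2 W) on the log2 scale, close to the -0.02 and -0.16 of all genes, and limma called 0 of them.

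CCL2 and CCL7 are neighbouring monocyte chemokines that both act through CCR2. The genes lie 9219 bases apart on rat chromosome 10 (*Ccl2* at 67503077 to 67504875, *Ccl7* at 67514095 to 67515945, GRCr8). *Ccl2* showed intensities of 62.2 at day 0, 227 on 1 W replicate 1, 713 on 1 W replicate 2 and 196 at 2 W. After scaling the 2 W array was close to 1 W replicate 1, and replicate 2 stood well above both. The ratio to day 0 was 7.39-fold at 1 W (log2 2.89, SE 0.75, limma adjusted p = 0.202) and 4.65-fold at 2 W (log2 2.22, SE 0.86, limma adjusted p = 0.177). Replicate 1 alone gave 4.10-fold and replicate 2 alone 13.3-fold.

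*Ccl7* followed with an intensity of 11.5 at day 0, 32.4 and 69.0 on 1 W replicates 1 and 2, and 41.8 at 2 W. Its ratio was 4.69-fold at 1 W (log2 2.23, SE 0.62, limma adjusted p = 0.22) and 5.37-fold at 2 W (log2 2.43, SE 0.72, limma adjusted p = 0.12). Replicate 1 alone gave 3.15-fold and replicate 2 alone 6.97-fold, and the 2 W ratio lay between them. For *Ccl2* and *Ccl7* every array after ECLE was thus above day 0, while limma did not call a difference between 2 W and 1 W (adjusted p = 0.627 for *Ccl2* and 0.87 for *Ccl7*). The levels most like those of *Ccl2* over the 4 arrays were those of *Reln* (distance 0.37) and *Tes* (0.67), and for *Ccl7* those of *Pkp1* (0.46) and *B3galnt1* (0.62).

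CXCL1 acts on CXCR2 and draws in neutrophils. *Cxcl1*, below the filter, showed intensities of 5.80 at day 0, 9.03 on 1 W replicate 1, 31.3 on 1 W replicate 2 and 9.00 at 2 W. As for *Ccl2*, replicate 2 was the highest array and replicate 1 and 2 W were close together. The ratio to day 0 was 3.31-fold at 1 W and 2.30-fold at 2 W, and replicate 1 alone gave 1.75-fold and replicate 2 alone 6.27-fold. In a fit of all probe sets without the filter, the limma adjusted p was 0.538 at 1 W and 0.62 at 2 W.

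The 2 arrays at 1 W therefore disagreed most for these 3 chemokines. Replicate 2 was higher than replicate 1 for 8 of the 9 genes, which held for 53.6% of all genes. It was higher by over 2-fold for 3, *Ccl2* (3.25-fold), *Ccl7* (2.21-fold) and *Cxcl1* (3.59-fold), which held for 8.24% of all genes. For *Ccl2* this difference was larger than that of 99.4% of probe sets of similar mean level (same decile). It was larger than that of 90.6% for *Ccl7* and 84.8% for *Cxcl1*, where dimmer probe sets vary more. *Ptgs2*, *Il6*, *Il1b* and *Cx3cl1* differed little between the replicates.

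**Figure D2:**
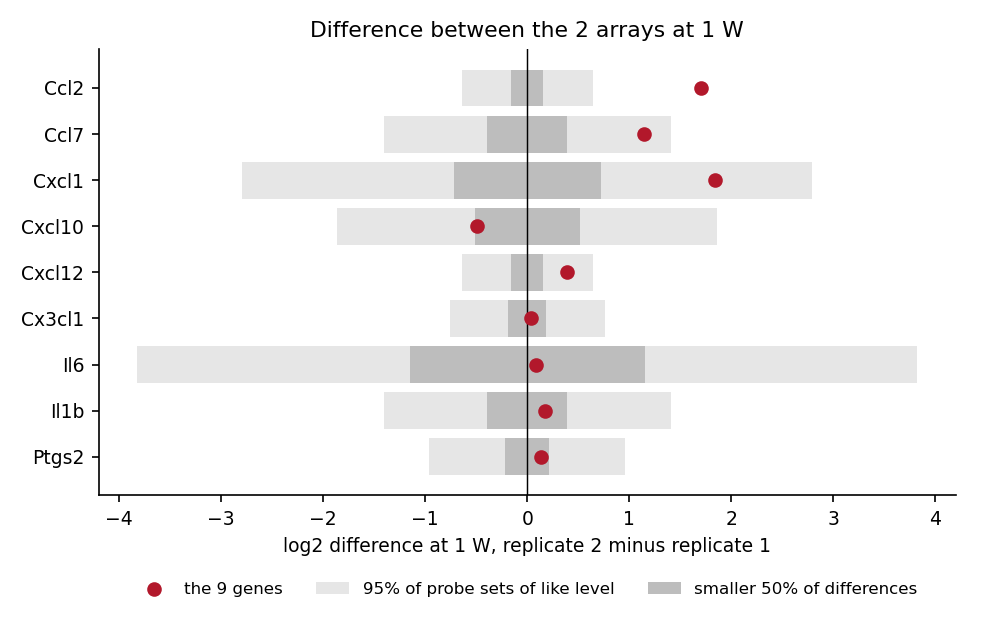
Log2 difference between the 2 arrays at 1 W (replicate 2 minus replicate 1) for each of the 9 genes (red points). The light bar spans the size of difference that 95% of probe sets of similar mean level (same decile) stay under, the dark bar the median size, and *Ccl2* alone lies outside its light bar, at 1.70 against 0.64.

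Macrophage markers were high on the arrays after ECLE too. Of 17 macrophage markers, 14 exceeded 2.0-fold on all 3 arrays, and their summed level was 2.92 array means at day 0, 21.1 and 15.9 on 1 W replicates 1 and 2, and 12.0 at 2 W. Unlike *Ccl2*, *Ccl7* and *Cxcl1*, 1 of the 17 was higher on replicate 2 than on replicate 1. Of 13 neutrophil markers 8 had a probe set and 1, *Lcn2*, passed the filter. Their summed level was 0.305 at day 0, 0.735 and 1.97 on 1 W replicates 1 and 2, and 0.635 at 2 W, and 6 of the 8 were higher on replicate 2. *Lcn2*, which epithelial cells can also make, was the brightest of them, at 32.9, 108, 359 and 48.5 on the 4 arrays. All 8 together had summed intensities of 74.5, 160, 413 and 105, so the higher sum on replicate 2 came mostly from *Lcn2*. The 12 measured photoreceptor markers were all higher on replicate 2 than on replicate 1, with a summed level of 70.7 at day 0, 6.80 and 30.5 on the 1 W arrays and 9.34 at 2 W. Summed marker levels were lower on replicate 2 than on replicate 1 for pigment cells (24.3 against 67.9) and smooth muscle (8.78 against 18.3). No marker was listed at 0, and the part of these cells in the values of the 9 genes was not tested.

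The receptors of these chemokines were dim. *Ccr2* showed intensities of 1.32 at day 0, 6.67 and 1.46 on the 1 W arrays and 1.19 at 2 W. *Ccr1*, which also binds CCL7, read 3.66, 33.9, 27.5 and 16.3, so all 3 arrays after ECLE were over 2.0-fold. *Cxcr2*, the receptor of CXCL1, read 4.34, 8.78, 14.9 and 9.50 and was over 2.0-fold on each as well. All 3 lie below the filter. Of the 16 of 20 listed chemokine receptor genes with a probe set, 4 were over 2.0-fold and 1 under 0.5-fold at 1 W, and 4 and 3 at 2 W. Their list median was 0.04 (1 W) and 0.54 (2 W) on the log2 scale, and limma called 0 of them. Only 5 of the 16 lie at or above the filter.

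Among the other chemokines, *Ccl6*, a macrophage chemokine known from rodents, showed intensities of 4.92 at day 0, 82.4 and 42.4 on the 1 W arrays and 25.4 at 2 W. Its ratio was 13.7-fold at 1 W (limma adjusted p = 0.138) and 7.66-fold at 2 W (limma adjusted p = 0.0885). At day 0 *Ccl6* was dim, below the 5.80 of *Cxcl1*, so these folds rest on a low day 0 value. *Cxcl13*, a B cell chemokine, read 22.1, 136, 47.7 and 38.8, with 1 W replicate 1 far above replicate 2, the reverse of *Ccl2*. Of the 25 of 29 listed chemokines with a probe set, 8 were over 2.0-fold and 3 under 0.5-fold at 1 W, and 14 and 3 at 2 W. The list median was 0.73 (1 W) and 1.06 (2 W) on the log2 scale, above that of all genes, and limma called 0 of its genes. Only 7 of the 25 lie at or above the filter.

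CXCL12 binds CXCR4 and the scavenging receptor ACKR3. The brightest *Cxcl12* probe set showed intensities of 490 at day 0, 437 and 553 on 1 W replicates 1 and 2, and 156 at 2 W. After scaling, day 0 and 1 W lay within 1.31-fold of each other and the 2 W array was below all other arrays. The ratio to day 0 was 1.15-fold at 1 W (log2 0.20, SE 0.22, limma adjusted p = 0.659) and 0.472-fold at 2 W (log2 -1.08, SE 0.26, limma adjusted p = 0.091). The log2 difference between 2 W and 1 W was -1.28 (SE 0.22, limma adjusted p = 0.139). The other 2 *Cxcl12* probe sets were closer to day 0, with log2 ratios at 2 W of -0.14 and -0.14, and intensities of 73.6, 68.5, 85.1 and 44.9 for one and 50.5, 66.0, 35.1 and 31.0 for the other. The count of 1 gene under 0.5-fold at 2 W rests on the brightest probe set of *Cxcl12*, and it is 0 with median scaling, with quantile normalization and with the mean over all its probe sets. Fibroblast and keratocyte markers, listed for stromal cells, had a summed level of 23.0, 53.4, 32.5 and 51.3 array means on the 4 arrays. Of the 10 measured, 4 were over 2.0-fold on each array after ECLE and 1, *Pdgfra*, was under 0.5-fold on each. Much of the higher sum on replicate 1 and at 2 W came from *Dcn*, at 46.5, 4238, 506 and 2833. The study places the induction of *Dcn* in residual LECs. The part of stromal cells in the *Cxcl12* values was not tested.

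*Ackr3* showed intensities of 599 at day 0, 228 and 412 on the 1 W arrays and 125 at 2 W, and its 2 W ratio of 0.308-fold did not pass the test (limma adjusted p = 0.113). *Cxcr4* read 32.4, 78.4, 49.6 and 54.0, with a 2 W ratio of 2.47-fold (limma adjusted p = 0.151). The 2 receptors of CXCL12 thus lay on opposite sides of day 0 at 2 W, with neither difference called. *Cxcr5*, the receptor of CXCL13, read 156, 186, 124 and 193, within 2.0-fold of day 0 on every array. The levels most like those of *Cxcl12* were those of *Arg2* (distance 0.08), a mitochondrial arginase, and *Pbxip1* (0.12).

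CX3CL1 is the ligand of CX3CR1, a receptor of monocytes and tissue macrophages. *Cx3cl1* showed intensities of 161 at day 0, 182 and 180 on the 1 W arrays and 127 at 2 W. It was 1.28-fold at 1 W (SE 0.18 log2, limma adjusted p = 0.371) and 1.16-fold at 2 W (limma adjusted p = 0.516), although without scaling the log2 ratio at 2 W was -0.35. The scaled arrays after ECLE lay close together and slightly above day 0. *Cx3cr1* read 37.5, 69.9, 50.5 and 41.7, with a ratio of 1.81-fold at 1 W (limma adjusted p = 0.31). *Ecsit* (distance 0.02) and *Zfp213* (0.03) had the levels most like *Cx3cl1*.

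*Cxcl10*, below the filter, showed intensities of 20.4 at day 0, 28.5 and 19.5 on the 1 W arrays and 9.65 at 2 W. After scaling the log2 ratios were 0.65, 0.15 and -0.51, so both 1 W arrays were above day 0 and the 2 W array below it, all within 2.0-fold. Without the filter the limma adjusted p was 0.80 at 1 W and 0.722 at 2 W. Its receptor *Cxcr3*, also below the filter, read 19.5, 21.1, 23.3 and 16.5. The summed level of 11 measured T and NK cell markers was low throughout, at 0.475, 0.796, 0.691 and 0.839 array means, and its part in these values was not tested.

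**Figure D3:**
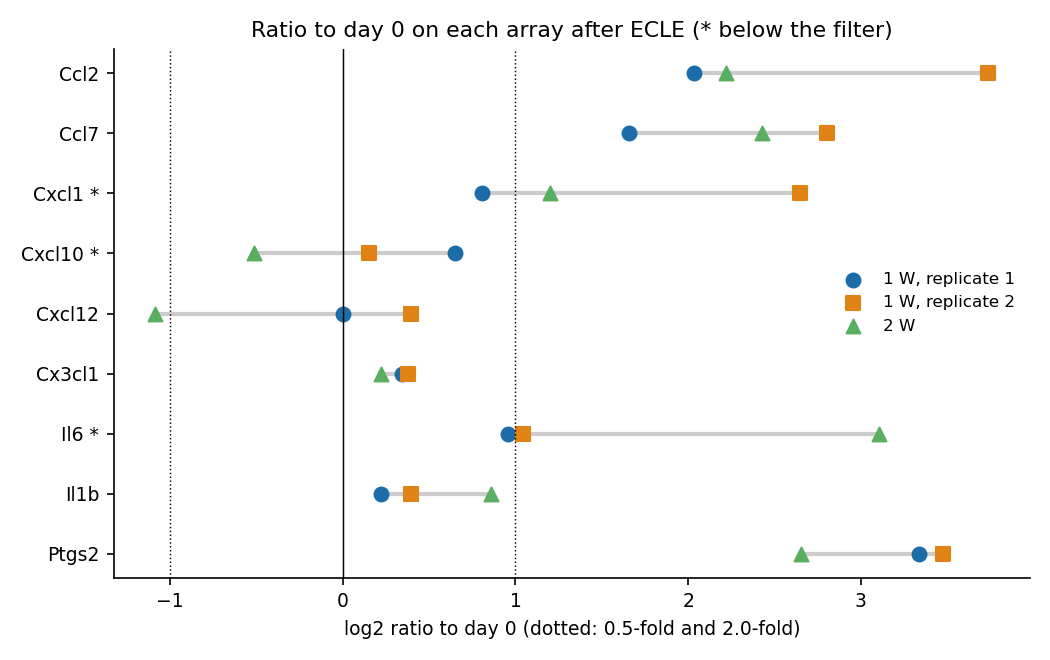
Log2 ratio to day 0 of each of the 9 genes on 1 W replicate 1, 1 W replicate 2 and 2 W, after each array was divided by its mean. *Ccl2*, *Ccl7* and *Ptgs2* lie to the right of the 2.0-fold line on all 3 arrays, *Il6* and *Cxcl1* on 2 of them, and only the 2 W array of *Cxcl12* lies left of the 0.5-fold line.

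The promoters of the chemokines were compared to show what the genes with unlike values share in sequence. RefSeq (GRCr8) gave a 300-base window around a start site for 8 of the 9 genes, all but *Ccl2*. It held 250 bases before the start and 50 after it. For *Cx3cl1* (minus strand) the upstream bases were chr19:10242821-10243070. They lie inside the annotated gene (10233326 to 10244856), so that start is not the outer end of the gene. Both strands were searched for 4 motifs. The TATA box was read as TATAAA. The AP-1 element was read as TGANTCA. The kappaB-type element of NF-kappaB was read as GGG, any 3 bases, then TTCC. The interferon-stimulated response element (ISRE) was read as TTTC, any 2 bases, then TTTC. The upstream 250 bases of 3 chemokines are shown 5′ to 3′ in the direction of transcription, with matches to these motifs in capitals. They were chosen because all 3 hold the kappaB-type motif, while *Ccl7* and *Cxcl1* had over 2.0-fold values after ECLE and *Cxcl10* had none. The windows are chr10:67513845-67514094 on the plus strand for *Ccl7*, chr14:17479322-17479571 on the minus strand for *Cxcl1* and chr14:15988816-15989065 on the plus strand for *Cxcl10*.
Ccl7: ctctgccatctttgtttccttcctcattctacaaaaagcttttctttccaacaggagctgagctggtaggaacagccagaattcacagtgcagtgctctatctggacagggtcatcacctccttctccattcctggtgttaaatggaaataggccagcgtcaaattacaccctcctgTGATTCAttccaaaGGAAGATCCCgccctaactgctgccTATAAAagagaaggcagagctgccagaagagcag
Cxcl1: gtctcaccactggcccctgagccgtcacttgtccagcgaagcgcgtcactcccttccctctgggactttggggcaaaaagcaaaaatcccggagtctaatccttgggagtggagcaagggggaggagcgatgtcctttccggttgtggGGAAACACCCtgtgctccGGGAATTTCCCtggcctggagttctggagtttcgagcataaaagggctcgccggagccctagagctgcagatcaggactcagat
Cxcl10: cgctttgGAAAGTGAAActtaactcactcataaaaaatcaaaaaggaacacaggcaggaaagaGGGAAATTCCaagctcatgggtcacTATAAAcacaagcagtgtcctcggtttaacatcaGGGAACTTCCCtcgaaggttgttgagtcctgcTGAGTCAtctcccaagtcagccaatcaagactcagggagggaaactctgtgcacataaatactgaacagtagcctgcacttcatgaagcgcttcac

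In *Ccl7* the AP-1, kappaB-type and TATA matches stand 73, 59 and 34 bases before the start (first base of each). In *Cxcl1* the kappaB-type motif begins 102 bases before the start and again at 84 and 83, where a match on each strand overlaps. *Cxcl10* holds all 4 motifs, with kappaB-type matches beginning at 187, 128 and 127, the last 2 overlapping. Among the 8 genes the kappaB-type motif was found in 4 (*Ccl7*, *Cxcl1*, *Cxcl10*, *Il6*), against 5.37% of 33469 rat promoter windows. TATAAA was in 4 (*Ccl7*, *Cx3cl1*, *Cxcl10*, *Il1b*), against 14.2%. These matches begin at unlike distances before the start, 34 bases in *Ccl7*, 60 in *Il1b*, 78 in *Cx3cl1* and 162 in *Cxcl10*. Whether any of them works as a TATA box was not tested. The AP-1 motif, searched with any base at its centre, was in 2, against 7.33%. The match reads TGATTCA in *Ccl7* and TGAGTCA in *Cxcl10*. The ISRE was in 1, against 3.92%. The windows of *Ptgs2* and *Cxcl12* held none of the 4 motifs. A match describes the letters and is not a measured binding site.

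**Figure D4:**
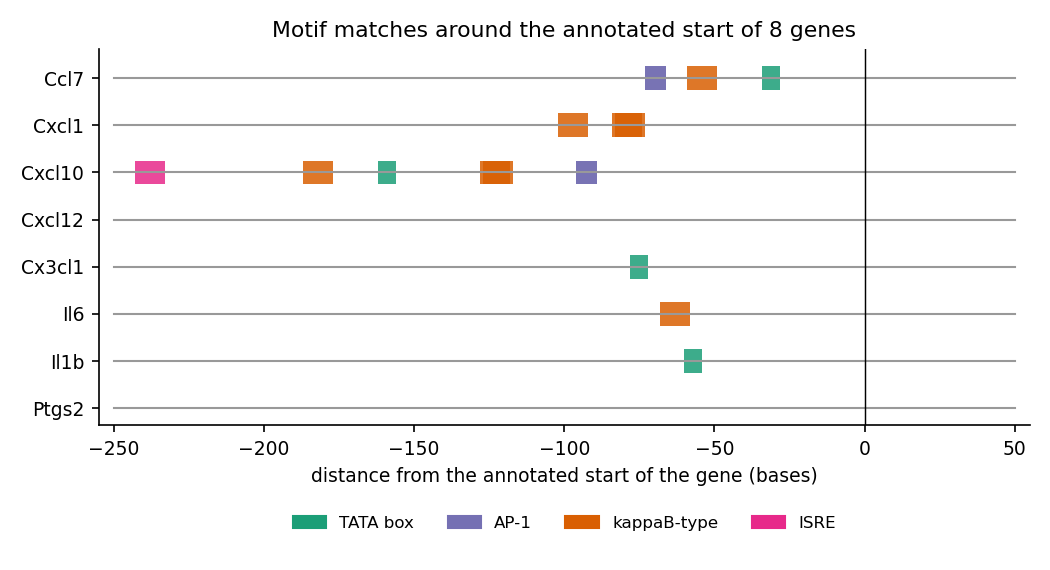
Position of motif matches in the promoter windows of 8 of the 9 genes, in bases from the start site of each window (0), on both strands. For *Cx3cl1* that start lies inside the annotated gene. Every match lies before the start, and the windows of *Cxcl12* and *Ptgs2* hold none.

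IL-6 signals through IL6R and the shared receptor chain gp130 (*Il6st*). *Il6* was very dim, at the 5.76th percentile of mean level, with an intensity of 0.995 at day 0, 1.72 and 1.76 on the 1 W arrays and 5.77 at 2 W. The order of the arrays was day 0, 1 W, 2 W, with ratios of 2.00-fold (just under the rule) at 1 W and 8.59-fold at 2 W. In its decile of level, 5% of probe sets differed between the 1 W replicates by over 3.82 log2 units, more than the log2 ratio of 3.10 at 2 W. Without the filter the limma adjusted p was 0.735 at 1 W and 0.262 at 2 W. With a floor at the 20th percentile of intensity the ratio of *Il6* was 0 on the log2 scale at both times.

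*Il6r* showed intensities of 31.4 at day 0, 62.4 and 108 on the 1 W arrays and 32.2 at 2 W, 2.99-fold at 1 W (limma adjusted p = 0.227) and 1.52-fold at 2 W (limma adjusted p = 0.487). *Il6st* read 762, 548, 533 and 278, with a 2 W ratio of 0.539-fold (limma adjusted p = 0.0685). *Socs3*, a feedback inhibitor of this pathway, read 69.7, 224, 95.5 and 67.6, high on 1 W replicate 1. Of the brightest genes of the list, *Cntf*, a neurotrophic cytokine, read 2666, 1699, 1764 and 868 with a 2 W ratio of 0.482-fold (limma adjusted p = 0.0577), and the kinase *Jak1* read 848, 914, 867 and 525. Of the 14 of 15 listed genes of the IL-6 family with a probe set, 3 were over 2.0-fold and 0 under 0.5-fold at 1 W, and 2 and 2 at 2 W. Their list median was 0.04 (1 W) and -0.17 (2 W) on the log2 scale, near that of all genes, and limma called 0.

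*Il1b* showed intensities of 24.7 at day 0, 25.6 and 27.9 on the 1 W arrays and 30.2 at 2 W. After scaling, all 3 arrays after ECLE were above day 0 and 2 W was the highest, at 1.24-fold at 1 W (SE 0.44 log2, limma adjusted p = 0.729) and 1.81-fold at 2 W (SE 0.50 log2, limma adjusted p = 0.313). Its levels were most like those of *Tpmt* (distance 0.04) and *Dctn2* (0.05). Its receptor gene *Il1r1*, whose difference in ratio from *Il1b* was not tested, read 47.1 at day 0, 170 and 179 on the 1 W arrays and 80.8 at 2 W. Its ratio was 4.23-fold at 1 W (SE 0.22 log2, limma adjusted p = 0.101) and 2.54-fold at 2 W (SE 0.25 log2, limma adjusted p = 0.0715). *Casp1*, the protease that matures IL-1β, read 14.6, 58.7, 28.8 and 38.1, over 2.0-fold on each array after ECLE (limma adjusted p = 0.264 at 1 W and 0.146 at 2 W). Of the 14 of 15 listed genes of the IL-1 system with a probe set, 5 were over 2.0-fold and 0 under 0.5-fold at 1 W, and 6 and 2 at 2 W. Their list median was 0.65 (1 W) and 0.77 (2 W) on the log2 scale, above that of all genes, and limma called 0. At or above the filter were 8 of the 14.

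Among 19 other cytokine genes, all with a probe set, 5 were over 2.0-fold and 3 under 0.5-fold at each time. Only 7 of the 19 lie at or above the filter. The list median was 0.35 (1 W) and 0.09 (2 W) on the log2 scale. *Csf1r*, the receptor of macrophage colony-stimulating factor and also a macrophage marker, read 38.6, 207, 136 and 82.6, with a ratio of 4.97-fold at 1 W (limma adjusted p = 0.119) and 3.17-fold at 2 W (limma adjusted p = 0.085). NF-kappaB is the transcription factor that many of the 9 genes are known to answer to. Of 18 listed genes of NF-kappaB and its feedback, 15 had a probe set, 3 were over 2.0-fold at 1 W and 2 at 2 W, and 0 were under 0.5-fold. Their list median was 0.19 (1 W) and -0.12 (2 W) on the log2 scale. *Vcam1*, the adhesion molecule that binds monocytes and lymphocytes, read 549, 1626, 1486 and 1157, at 3.24-fold at 1 W (SE 0.13 log2, limma adjusted p = 0.0828) and 3.12-fold at 2 W (SE 0.15 log2, limma adjusted p = 0.0553). The inhibitor *Nfkbia*, itself a target of NF-kappaB, read 260, 240, 209 and 125, at 0.983-fold at 1 W and 0.714-fold at 2 W (limma adjusted p = 0.205). Limma called 0 genes of either list.

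**Figure D5:**
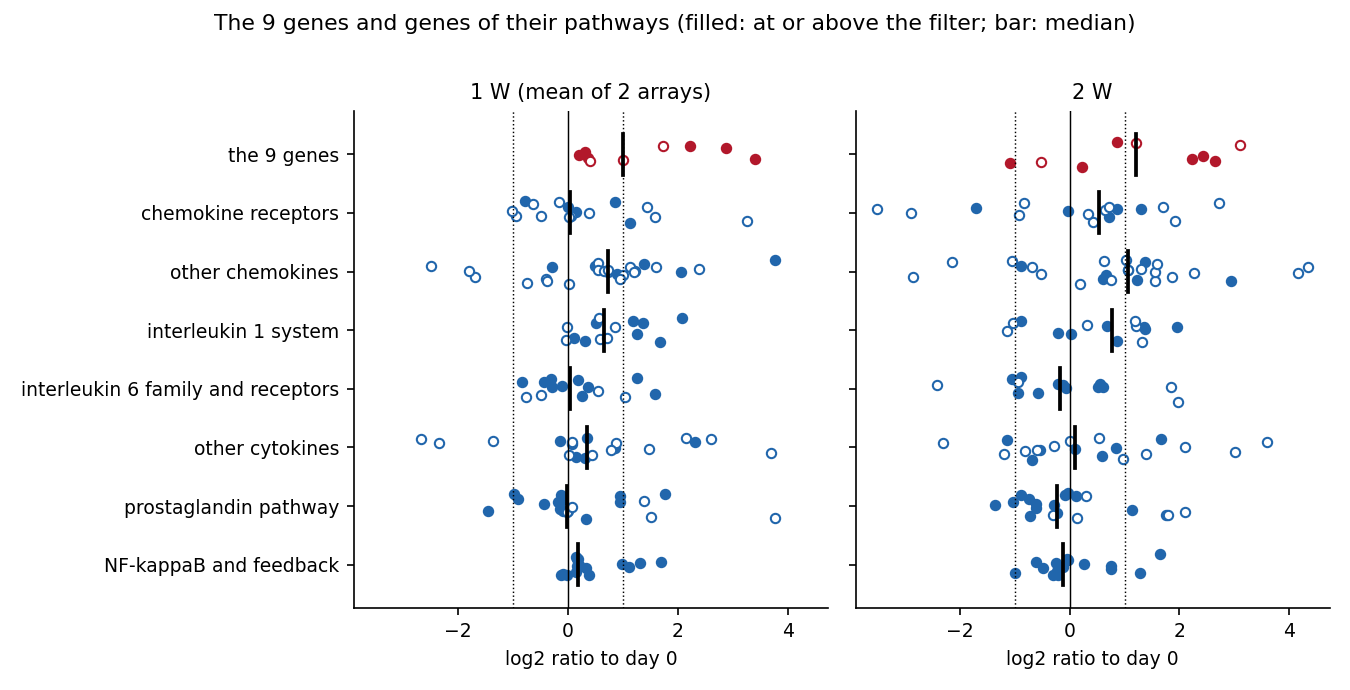
Log2 ratio to day 0, left for 1 W (mean of 2 arrays) and right for 2 W, of the 9 genes (red) and of genes in 7 pathway lists (blue), 1 point per gene, filled where the gene passed the filter, with a bar at each median. The median of the 9 genes lies at 1.00 (1 W) and 1.20 (2 W), close to or past the dotted 2.0-fold line, and the medians of the prostaglandin and IL-6 lists lie near 0 at 1 W. The median of the 9 genes is the value of *Il6* at 1 W and of *Cxcl1* at 2 W, both below the filter.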

How the data were processed

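RNA of lens capsules with LECs at day 0 (1 array), 1 W (2 arrays) and 2 W (1 array) after ECLE was measured on Affymetrix rat genome arrays. The authors scanned them, made probe set values with Affymetrix Expression Console (per the submitters' processing notes) and deposited these as linear intensity, with 31099 probe sets per array. The methods describe a per chip normalization, in which values were divided by those of controls or by the mean of the array. The deposited array means differ, so division by the mean is not in these values, and whether control values were used, and which summary algorithm, is not stated in the sources used here. The array number limits precision, and no detection calls were used.

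The 57 control probe sets were left out. Because array medians spanned 0.84 log2 units, arrays were scaled to an equal mean before taking log2. Of the probe sets left, 20826 had 1 gene symbol in the platform annotation, 436 several and 9780 none. Those whose mean log2 level reached the 40th percentile were fitted with limma 3.58.1 in R 4.3.3 (3 groups, intensity trend, two-sided, Benjamini-Hochberg over 18625 probe sets, threshold 0.05), with 1 residual and 3.12 prior degrees of freedom, and the fit was tested on simulated data. Tables and figures used Python 3.11.15, pandas 2.3.3, numpy 2.4.6 and matplotlib 3.10.9. The members and lists were chosen with earlier results of these data known. From each of 7 pathway lists, the text names every gene called by limma. It also names up to 2 genes in each direction that met a fold rule on each array after ECLE. These had to lie at or above the filter, and those with the largest absolute mean log2 ratio were taken. Where no gene met this, the 2 brightest are named. Genes named outside this rule, the receptors, *Il6st*, *Socs3*, *Nfkbia*, *Lcn2* and the prostaglandin enzymes among them, were chosen after their values were seen. Alternatives were median and quantile scaling, no scaling, a floor, other filters, no trend, the arrays after ECLE as 1 group, all probe sets of a gene and each 1 W replicate left out.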

Additional observations from a re-analysis of the deposited data

How the results depend on the processing

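No paired analysis was possible because only 1 W had more than 1 array. With median scaling limma called 2 of the 9 genes at 1 W (*Ccl2*, adjusted p = 0.048, and *Ptgs2*, adjusted p = 0.00499) and 2 at 2 W (*Ccl7*, adjusted p = 0.0477, and *Ptgs2*, adjusted p = 0.00872). Without scaling it called 1 at 1 W (*Ptgs2*), 2 at 2 W and 2 between 2 W and 1 W (*Cxcl12* and *Ptgs2* both times). Under the other limma settings it called 0. Median scaling put the median log2 ratio of all genes at 0.10 (1 W) and 0.12 (2 W), and no scaling at -0.21 and -0.73. Calls over all probe sets, 9 higher at each time, became 8 and 0 with quantile normalization, 87 and 344 higher with 163 and 7630 lower without scaling, and 0 without the intensity trend. Genes over 2.0-fold at 2 W, 5 in the main setting, numbered 6 with median scaling or quantile normalization, where *Il1b* joined. They numbered 4 without scaling and 3 with the floor. At 1 W, where the main setting gave 4, they numbered 5 with median scaling or quantile normalization, 4 without scaling and 3 with the floor. Genes over 2.0-fold at 1 W numbered 3 to 5 with a replicate left out, and on each array after ECLE 3 to 5, with 5 without replicate 1, where *Cxcl1* and *Il6* join. Under 0.5-fold at 2 W there were 0 with median scaling, quantile normalization or the mean over probe sets. Without scaling there were 2, *Cxcl12* and *Cxcl10*. Of 108 log2 ratios of the 9 genes under alternatives, 1 changed sign (*Cx3cl1* at 2 W, -0.35 without scaling). A move of more than 1 standard deviation of the 1 W arrays was seen for 26 of the 108. Leaving out a 1 W replicate left no residual degree of freedom, so limma could not be run. Ratios of dim probe sets, *Il6* above all, are the least certain, since no detection calls were used. The cause of these differences was not tested.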
